A study of Homo sapiens with 18 samples.

Results

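Numbered ZNF genes are human genes named for their zinc fingers, short protein modules that fold around a zinc ion and, in most of these proteins, read DNA one finger after another. They were taken as every gene whose symbol is ZNF followed only by digits, which gave 153 of the 8996 genes with fitted RNA kinetics. SLAM-seq, which marks new RNA with 4-thiouridine (s4U) and reads it as T-to-C changes after alkylation, was run on HEK293T cells, a wild-type human embryonic kidney line. Cells received STM2457, a small-molecule inhibitor of METTL3, for 3 h, against DMSO, its solvent, for the same time. Each treatment was then followed by no s4U, or by 100 µM s4U for 90 or 180 min, with 3 samples in each of the 6 groups and 18 in all. Every group is the same cell line, so the comparison describes 1 line. The labels do not say whether the 3 samples of a group are separate cultures.

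The authors' table holds 1 half-life and 1 synthesis value per gene and treatment, fitted over samples, with no value for a single sample, no error and no read counts. The RNA came from whole cultures, in which fewer cells and less RNA per cell cannot be told apart. Depth is unknown, no test was possible, and every ratio below sets 1 fitted value against another. A gene is called longer-lived or shorter-lived in STM2457 where the half-lives differed by more than 1.5-fold, a rule of size and not of significance. The table names no time unit, and hours are inferred from its values. Fitted half-lives stop at a ceiling of 69.3 h, so a value there is a limit of the fit. Of 7 genes taken as markers that HEK293T cells are known for, the table lists VIM, NEFL and NEFM among others, and of 7 markers of other cells it lists 2 (COL1A1 and CDX2). The levels of these genes were not given.

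METTL3 writes N6-methyladenosine (m6A), the most common internal mark of mRNA, at adenosines inside the DRACH motif (D is A, G or T, R is A or G, and H is A, C or T), and the mark is known to hasten decay. Exon junctions keep the mark off nearby sequence, so m6A is found mostly in long internal exons and in last exons. Proteins with such fingers are the largest class of human transcription factors. Many carry a KRAB domain, which recruits the corepressor TRIM28 and through it histone methylation to silence retroelements. In such genes the whole array of fingers usually lies in 1 long last coding exon. Neighbouring fingers are joined by a conserved linker, and its codons repeat from finger to finger.

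The linkers show how the repeats of these genes can carry or lack a possible m6A motif, which is why 6 are printed, the first linker of each gene on its own coding strand. Each run is 27 bases of coding sequence from GENCODE 29 (GRCh38): the first 6 bases precede the linker, the next 15 encode it and the last 6 follow it, and capitals mark a DRACH motif. The genes were chosen for the number of linkers and of linkers with a motif, with no use of half-lives.
ZNF721 (chr4:443969-443995, minus strand): attcatactggagagAAACCttacaaa
ZNF420 (chr19:37127469-37127495, plus strand): attcatactggtgaaAAACCctatgaa
ZNF182 (chrX:47977298-47977324, minus strand): actcatacgggagagAAACCttttgga
ZNF71 (chr19:56621738-56621764, plus strand): atccacacgggagaaaagccgtttgag
ZNF316 (chr7:6652776-6652802, plus strand): acgcacaccggcgagaagcccttcccg
ZNF628 (chr19:55481362-55481388, plus strand): acgcacacaggcgagcggccctacaag
In the first 3 genes 16 of 16, 14 of 15 and 9 of 9 linkers held a motif, and in the last 3 none of 11, 9 and 8 did. The motif in capitals is AAACC in all 3.

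The family was short-lived in both treatments. Its median half-life was 2.49 h in STM2457 (quartiles 1.70 and 4.29 h) and 1.79 h in DMSO (quartiles 1.29 and 2.96 h). The other 8843 genes had medians of 5.45 h in STM2457 and 5.69 h in DMSO. Under 2 h lay 48 members (31.4%) in STM2457 and 89 (58.2%) in DMSO, against 9.76% of the other genes in STM2457 and 11.6% in DMSO. Numbered ZNF genes made up 1.70% of the table, but 5.27% of its 911 genes under 2 h in STM2457 and 8.004% of its 1112 such genes in DMSO. The members ran from 0.593 h to the ceiling in STM2457 and from 0.588 to 21.1 h in DMSO, and their order was largely kept, with a Spearman correlation of 0.71 between the treatments over 153 genes of the same libraries.

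Half-lives were longer in STM2457 for most members. The ratio was above 1 in 108 of 153 (70.6%), against 47.6% of the other genes. By the 1.5-fold rule 71 members (46.4%) were longer-lived, where 28.5% of all genes of the table were. Another 17 (11.1%) were shorter-lived, where 24.9% of all genes were, and 65 lay within 1.5-fold. The median log2 ratio was 0.50 in the family (quartiles -0.10 and 1.08) and -0.01 in all other genes. With both half-lives kept between 0.5 and 24 h, 63 of 145 members (43.4%) were longer-lived, where 20.3% of all genes in that range were, and 17 were shorter-lived, where 27.4% were. The medians in that range were 0.38 in the family and -0.17 in other genes.

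**Figure D1:**
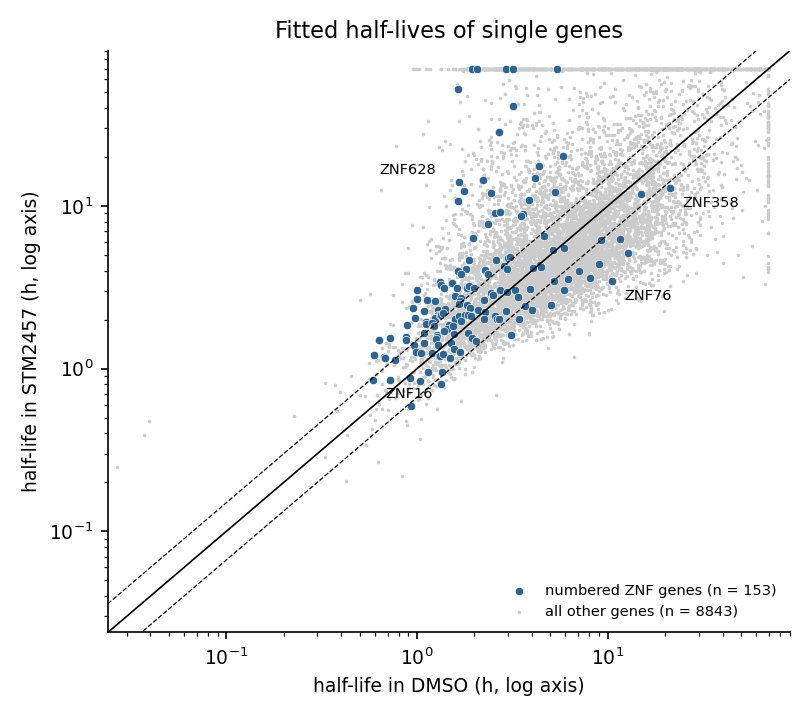
Half-life in STM2457 against half-life in DMSO (h, both axes logarithmic) for 153 numbered ZNF genes (blue) and 8843 other genes (grey). The solid line marks equal values and the dashed lines 1.5-fold. The ZNF genes crowd the short-lived end, 71 of them above the upper dashed line and 17 below the lower one, and 5 lie on the ceiling of 69.3 h in STM2457.

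The 10 largest ratios among members within 0.5 to 24 h ran from 3.36- to 8.48-fold. ZNF628 (ENSG00000197483.10, chromosome 19, 55476332 to 55484487, plus strand) had a half-life of 14.05 h in STM2457, against 1.66 h in DMSO. It lies far above the 1.5-fold line, and its 16 fingers all sit in 1 coding exon of 3170 nt. ZNF142 (ENSG00000115568.15, chromosome 2, 218637916 to 218659655, minus strand), a gene known from neurodevelopmental disorders, had 12.3 h in STM2457 and 1.76 h in DMSO. ZNF71, whose linkers lack the motif, had 10.7 h in STM2457 and 1.64 h in DMSO. These 3 genes were all under 2 h in DMSO and above 10 h in STM2457.

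ZNF579 had 14.4 h in STM2457 and 2.23 h in DMSO. ZNF282, a KRAB gene known for binding the promoter of a human retrovirus, had 11.9 h in STM2457 and 2.45 h in DMSO. ZNF316 had 17.7 h in STM2457 and 4.36 h in DMSO. ZNF316 thus began from a DMSO value above most of the family, as did the next gene. ZNF771 had 14.8 h in STM2457 and 4.17 h in DMSO. ZNF146, whose protein is almost only fingers, had 8.999 h in STM2457 and 2.55 h in DMSO, and ZNF688 had 9.16 h in STM2457 and 2.73 h in DMSO. ZNF32 had 20.3 h in STM2457 and 5.82 h in DMSO, the highest STM2457 value of the 10.

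At the ceiling in STM2457 were 5 of 153 members, and none were there in DMSO; of all genes, 980 of 8996 were there in STM2457 and 229 in DMSO, so the members' share was below the background. Their half-lives in DMSO were 1.94 h for ZNF641, 2.06 h for ZNF672, 2.92 h for ZNF213, 3.20 h for ZNF318 and 5.45 h for ZNF219. ZNF219 is a DNA-binding transcriptional regulator, and ZNF318 is known in mouse B cells for setting the choice between IgM and IgD. ZNF213 shares its locus with an antisense gene, ZNF213-AS1, which had 16.2 h in STM2457 and 3.52 h in DMSO. The sources used here do not say whether the authors' counting used strand, and the reads of a gene and its antisense partner may not be told apart. Of all members, 87 overlap a gene on the opposite strand in GENCODE 29 and 54 overlap another gene on their own strand. The 54 include longer-lived members such as ZNF318 (which overlaps CRIP3), ZNF445, ZNF148, ZNF609 and ZNF587, whose values are uncertain for that reason. Without those 54 the family's median log2 ratio was 0.67 over 99 genes.

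At the other end, the 10 smallest ratios were all shorter-lived in STM2457, from 1.74- to 3.04-fold. ZNF76 (ENSG00000065029.15, chromosome 6, 35258909 to 35295985, plus strand), a close relative of the promoter-binding factor ZNF143, had 3.47 h in STM2457, against 10.5 h in DMSO. ZNF511 had 5.12 h in STM2457 and 12.8 h in DMSO, and it overlaps the readthrough gene ZNF511-PRAP1 on its strand, so its value is uncertain. ZNF512 had 3.61 h in STM2457 and 8.03 h in DMSO. All 3 were above 8 h in DMSO and under 6 h in STM2457.

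ZNF704 had 2.46 h in STM2457 and 5.05 h in DMSO. ZNF664, which overlaps RFLNA on its strand, had 4.42 h in STM2457 and 9.02 h in DMSO. ZNF692 had 1.61 h in STM2457 and 3.12 h in DMSO. Of the 10, ZNF692 and ZNF704 were the members below the family's STM2457 median. ZNF428 had 6.29 h in STM2457 and 11.6 h in DMSO, and ZNF414 had 3.55 h in STM2457 and 6.17 h in DMSO. The remaining pair, ZNF326 and ZNF330, belong to the RNA and nucleolar genes described further on.

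**Figure D2:**
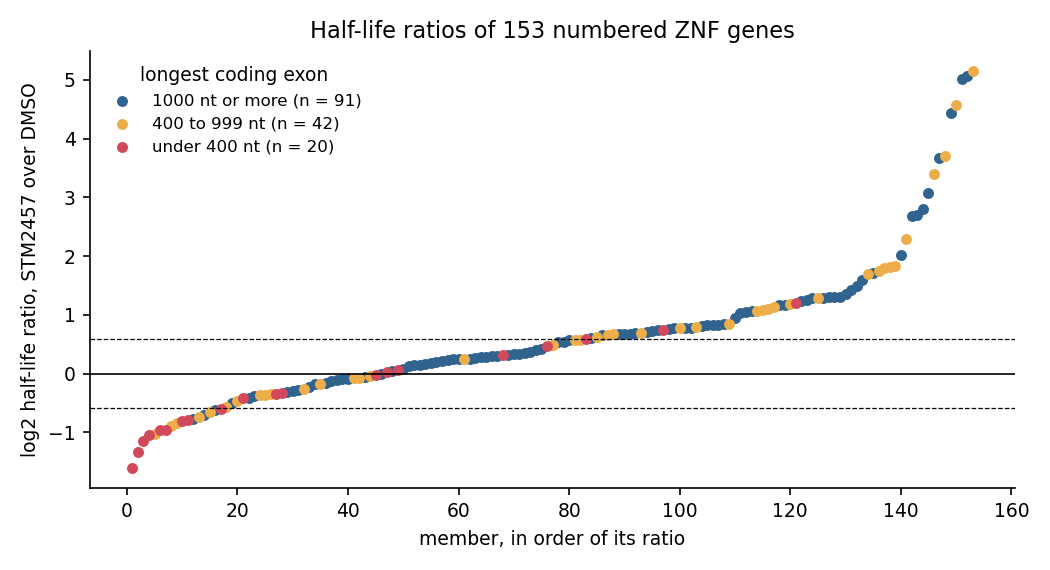
Log2 ratio of half-life in STM2457 over DMSO for each of the 153 numbered ZNF genes, in rising order, coloured by the length of the longest coding exon; dashed lines mark 1.5-fold. The lowest ratios are mostly genes whose longest coding exon is under 400 nt (9 of the 17 shorter-lived members), and the 5 genes at the ceiling stand at the upper end.

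Members that act in transcription and chromatin had counts near those of the whole family. Of 30 such genes in a list from textbook roles, 23 were in the table; 12 were longer-lived (52.2%), 2 were shorter-lived (8.70%) and the other 9 stayed inside 1.5-fold, beside 46.4% and 11.1% of the family and 28.5% and 24.9% of all genes. Their log2 ratios had a median of 0.66, against -0.01 over all genes. ZNF292, a large factor linked to neurodevelopment, had 3.03 h in STM2457 and 1.01 h in DMSO. ZNF281, a regulator of stem cell identity, had 2.68 h in STM2457 and 1.001 h in DMSO. Its relative ZNF148 had 3.14 h in STM2457 and 1.62 h in DMSO. Both relatives were longer-lived and both were under 2 h in DMSO.

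ZNF703, a corepressor known from breast cancer, had 4.001 h in STM2457 and 1.64 h in DMSO. ZNF202 had 2.61 h in STM2457 and 1.24 h in DMSO. ZNF644, a partner of the H3K9 methyltransferases G9a and GLP, had 2.30 h in STM2457 and 1.29 h in DMSO. ZNF445, which guards imprinted loci, had 4.02 h in STM2457 and 2.27 h in DMSO. ZNF24, ZNF384 and ZNF609 were longer-lived by 1.72-, 1.67- and 1.58-fold, and ZNF318 and ZNF219 have been given at the ceiling.

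The 2 shorter-lived genes of that list were ZNF76 and ZNF335. ZNF335, a component of histone H3K4 methyltransferase complexes needed for brain growth, had 2.30 h in STM2457 and 3.99 h in DMSO. Within 1.5-fold was ZNF143, the relative of ZNF76, with 1.55 h in STM2457 and 1.95 h in DMSO. ZNF410, known as a selective activator of CHD4, had 4.10 h in STM2457 and 2.96 h in DMSO. The SUMO ligase ZNF451 had 2.10 h in STM2457 and 1.67 h in DMSO, and ZNF462 had 2.93 h in STM2457 and 2.44 h in DMSO. ZNF131, ZNF263, ZNF395, ZNF592 and ZNF687 completed the 9, with ratios between 0.755 and 1.34 of the DMSO value.

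Members that work on RNA, ribosomes or the spindle were few and fell on both sides. Of 11 genes in that list, all in the table, 2 were longer-lived (18.2%), 4 were shorter-lived (36.4%) and the other 5 stayed inside 1.5-fold, where 28.5% and 24.9% of all genes were past the rule. The log2 ratios had a median of -0.10. Their longest coding exon had a median of 272 nt and their DMSO half-life one of 4.63 h, against 1527 nt and 1.87 h in the transcription list, and the part of these in the counts was not tested. The longer-lived genes were ZNF593 and ZNF622, both factors of large ribosomal subunit assembly. ZNF593 had 12.2 h in STM2457 and 5.31 h in DMSO, and ZNF622 had 1.92 h in STM2457 and 1.20 h in DMSO.

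ZNF326, a subunit of a complex that couples transcription elongation to splicing, had 3.96 h in STM2457 and 7.05 h in DMSO. The nucleolar protein gene ZNF330 had 3.03 h in STM2457 and 5.86 h in DMSO. ZNF638, an RNA-binding protein that also silences unintegrated retroviral DNA, had 2.01 h in STM2457 and 3.42 h in DMSO. ZNF706 had 3.45 h in STM2457 and 5.21 h in DMSO, a ratio of 1.51-fold that barely passed the rule. All 4 of these shorter-lived genes were above the family's DMSO median.

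Within 1.5-fold were ZNF207, which loads the checkpoint protein BUB3 onto kinetochores, with 3.10 h in STM2457 and 3.92 h in DMSO, and ZNF598, the ubiquitin ligase of collided ribosomes, with 6.53 h in STM2457 and 4.63 h in DMSO. ZNF346, a binder of double-stranded RNA, had 4.15 h in STM2457 and 4.08 h in DMSO. ZNF106 and ZNF277 also lay within 1.5-fold. Of 9 members known to repress retroelements only ZNF587 was in the table, with 2.78 h in STM2457 and 1.57 h in DMSO.

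The corepressors that KRAB zinc-finger proteins recruit had shares near those of all genes. Of 22 listed symbols 21 were in the table (FAM208A is an older symbol of TASOR); 5 were longer-lived (23.8%), 7 were shorter-lived (33.3%) and the other 9 stayed inside 1.5-fold, where 28.5% and 24.9% of all genes were past the rule. The log2 ratios had a median of -0.15. With a 2-fold rule the list held 3 longer-lived genes and 0 shorter-lived ones, so its lean depends on the fold. TRIM28, the protein that KRAB domains bind, had 5.49 h in STM2457 and 10.7 h in DMSO. SETDB1, the H3K9 methyltransferase of the complex, had 13.2 h in STM2457 and 4.04 h in DMSO. ATF7IP, which stabilises SETDB1, had 4.72 h in STM2457 and 2.65 h in DMSO. The scaffold and the enzyme it recruits thus lay on opposite sides of the 1.5-fold rule.

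TASOR, a core subunit of the HUSH silencing complex, had 2.34 h in STM2457 and 4.53 h in DMSO, and PPHLN1, another subunit, had 3.73 h in STM2457 and 6.90 h in DMSO. The third subunit, MPHOSPH8, had 3.59 h in STM2457 and 3.98 h in DMSO, within 1.5-fold. MORC2, the ATPase that works with HUSH, had 2.51 h in STM2457 and 4.61 h in DMSO. The heterochromatin protein genes CBX3, CBX1 and CBX5 had STM2457 values of 13.9, 6.79 and 14.5 h, against DMSO values of 22.4, 8.55 and 14.8 h, and only CBX3 passed the rule. The deacetylases split: HDAC1 had 29.01 h in STM2457 and 16.3 h in DMSO, and HDAC2 had 6.16 h in STM2457 and 12.02 h in DMSO. The DNA methyltransferase gene DNMT1 was at the ceiling in STM2457 with 17.8 h in DMSO, and the remodeller gene CHD3 had 24.7 h in STM2457 and 11.1 h in DMSO.

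Members had longer coding exons than the rest of the table. The longest coding exon had a median of 1154 nt in members, ranging from 135 to 7149 nt, and of 262 nt in the 8458 other genes with a coding sequence. Members had a median of 18 DRACH motifs whose A lay at least 100 nt from an exon junction in the coding sequence, called far motifs here, and other genes a median of 3. Of all coding DRACH motifs 65.4% were far in members, against 24.2% in other genes. Of 1332 fingers counted in 148 members, 85.1% lay in the longest coding exon. A motif in sequence is not a measured m6A site, and m6A was not measured in these data.

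Members without a long coding exon did not share the family's lean. This comparison was added after the data had been seen. Among the 20 members whose longest coding exon was under 400 nt, 3 were longer-lived and 9 shorter-lived, with a median log2 ratio of -0.38. Among the 42 with 400 to under 1000 nt, 23 were longer-lived and 5 shorter-lived (median 0.67), and among the 91 with 1000 nt or more, 45 were longer-lived and 3 shorter-lived (median 0.57). The other genes of the table had medians of -0.19, 0.20 and 0.61 in the same classes. In that order 15%, 54.8% and 49.5% of members were longer-lived, where 21.4%, 36.3% and 51.3% of other genes were. The shorter-lived shares were 45%, 11.9% and 3.30% of members and 30.7%, 16.9% and 9.09% of other genes. At 1000 nt or more the longer-lived share was thus near that of other genes. Short-exon members were 9 of the 17 shorter-lived members (52.9%) and 3 of the 71 longer-lived ones (4.23%).

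The 9 shorter-lived short-exon members were ZNF76, ZNF511, ZNF512, ZNF704, ZNF692, ZNF330, ZNF414, ZNF335 and ZNF706, and the 3 longer-lived ones were ZNF593, ZNF384 and ZNF740. ZNF740, named here after its values were seen, had 4.29 h in STM2457 and 2.84 h in DMSO. Short exons went with long DMSO half-lives: the Spearman correlation of longest coding exon with DMSO half-life was -0.36 over the 153 members, which share libraries. Among members with 2 to 8 h in DMSO the class medians were -0.34 (13 members), 1.75 (15) and 0.25 (28), so the middle class stood highest and the shortest lowest. Across all members the correlation of exon length with the log2 ratio was 0.27, and that with STM2457 half-life -0.16.

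**Figure D3:**
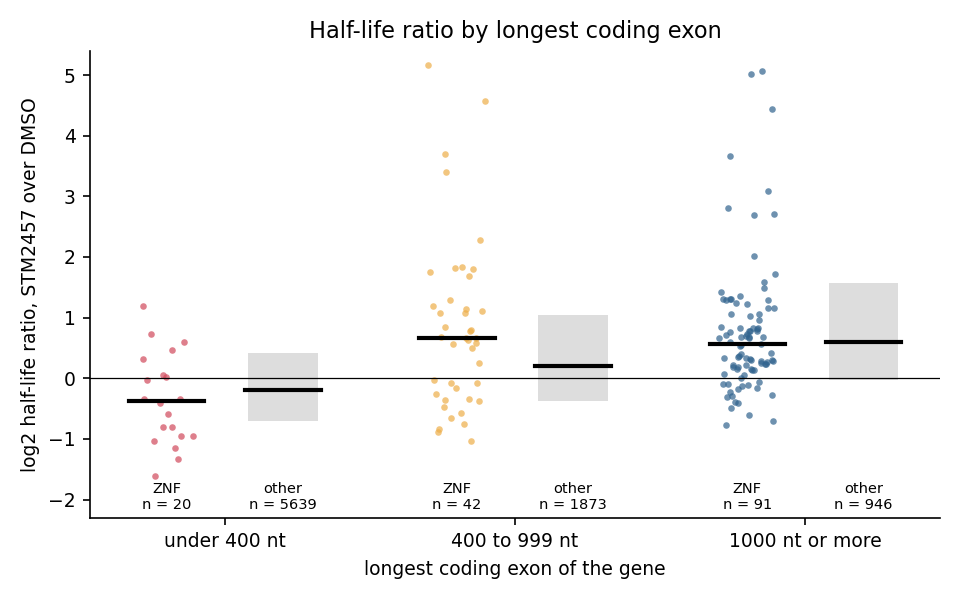
Log2 ratio of half-life in STM2457 over DMSO by the longest coding exon of the gene. Points are single numbered ZNF genes, black bars are medians, and grey boxes span the quartiles of all other genes in the class. ZNF genes under 400 nt have a median of -0.38, and those of 400 to under 1000 nt and of 1000 nt or more have medians of 0.67 and 0.57.

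Other features of the proteins separated the members less. A KRAB A box pattern was found in 58 members, of which 26 were longer-lived (44.8%) and 1 shorter-lived (1.72%), with a median of 0.49. The 95 members without it had 45 longer-lived and 16 shorter-lived (median 0.50), so the medians were alike and the shorter-lived genes lay almost all outside the KRAB group; the pattern may miss diverged domains. SCAN domains, which pair such proteins with each other, were found in 11 members, 6 longer-lived (54.5%) and none shorter-lived (median 0.78). Medians were 0.50 for 0 to 4 fingers (43 members), 0.25 for 5 to 9 (53) and 0.67 for 10 or more (57). In that order 46.5%, 41.5% and 50.9% were longer-lived. The shorter-lived members numbered 10 (23.3%), 6 (11.3%) and 1 (1.75%).

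ZNF462, ZNF142 and ZNF646 had the most fingers, with 33, 31 and 30. ZNF462 was within 1.5-fold and ZNF142 was among the largest ratios. ZNF646 was longer-lived, with 1.89 h in STM2457 and 1.11 h in DMSO. ZNF292, ZNF318 and ZNF646 had the most far motifs, with 167, 139 and 122, and all 3 were longer-lived. Among members with fewer, ZNF462 (114) and ZNF106 (87) were within 1.5-fold and ZNF638 (81) was shorter-lived. Over the family, members above the median of far motifs had a median log2 ratio of 0.56 and those at or under it 0.34, with 2 and 15 shorter-lived members.

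The motif in the finger linkers did not follow the half-life ratio. In 102 members 468 linkers matched the pattern, and 213 of them (45.5%) held a DRACH motif, against 20.5% of all in-frame coding windows of 15 nt in the table and 19.8% of those in the members. The share was 36.5% of 208 linkers in longer-lived members, 54.2% of 240 in members within 1.5-fold and 35.0% of 20 in shorter-lived members. Of the genes whose linkers are printed above, ZNF721 had 2.11 h in STM2457 and 2.55 h in DMSO, ZNF420 had 3.26 h in STM2457 and 1.33 h in DMSO, and ZNF182 had 1.75 h in STM2457 and 1.43 h in DMSO. The 3 genes without the motif, ZNF71, ZNF316 and ZNF628, were all among the 10 largest ratios. Linkers of 1 gene are repeats of each other and not independent.

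Chromosome 19 holds most KRAB zinc-finger clusters of the human genome, and 43 members lie there. Of these 17 were longer-lived (39.5%) and 4 shorter-lived (9.30%), with a median of 0.32. Of the 110 members elsewhere 54 (49.1%) were longer-lived and 13 (11.8%) shorter-lived, with a median of 0.56. The shares were 46.4% and 11.1% in the whole family and 28.5% and 24.9% in all genes. Runs of at least 4 members less than 500 kb apart were found at 6 places. In the run at chromosome 7 (149126416 to 149497817, GRCh38), ZNF398, ZNF282, ZNF212, ZNF783, ZNF777 and ZNF746, 5 of 6 were longer-lived and none shorter-lived, with a median of 1.04. In the run of 10 at chromosome 16 (30378106 to 31084196) 7 were longer-lived and none shorter-lived (median 0.78), and in the run of 9 at chromosome 19 (55476332 to 56626481), which holds ZNF628, ZNF579 and ZNF71, 6 were longer-lived and none shorter-lived (median 1.19). Only the small run of 4 at chromosome 16 (3112560 to 3301401) held a shorter-lived member, ZNF205, which was named after its values were seen. The runs are small, and whether their counts differ from the family's shares was not tested.

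How a member responded went with its half-life in DMSO. Median log2 ratios were 0.79 for the 17 members under 1 h, 0.62 for the 72 of 1 to 2 h, 0.37 for the 40 of 2 to 4 h and -0.46 for the 24 of 4 h or more. In the other genes the medians of these classes were 0.56, 0.41, 0.22 and -0.24. Of the 24 members at 4 h or more 5 were longer-lived (20.8%) and 11 shorter-lived (45.8%), where 22.8% and 34.3% of other genes in that class were. At 1 to 2 h 51.4% of members were longer-lived and 1.39% shorter-lived, where 42.0% and 4.10% of other genes were. The class and the ratio share the DMSO value: with classes set by a member's log2 half-life averaged over STM2457 and DMSO, the difference of the shortest minus the longest class changed sign, to -0.76.

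The shortest DMSO values belonged to ZNF16, with 0.855 h in STM2457 and 0.588 h in DMSO, ZNF12, with 1.21 h in STM2457 and 0.592 h in DMSO, and ZNF180, with 1.49 h in STM2457 and 0.629 h in DMSO. ZNF12 and ZNF180 were longer-lived, and ZNF16 stayed just inside 1.5-fold. The longest DMSO values were those of ZNF358, with 12.9 h in STM2457 and 21.1 h in DMSO, ZNF580, with 11.8 h in STM2457 and 14.9 h in DMSO, and ZNF511. ZNF580 overlaps ZNF581 and CCDC106 on its strand, so its value is uncertain. ZNF358 and ZNF511 were shorter-lived, and ZNF580 was within 1.5-fold.

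**Figure D4:**
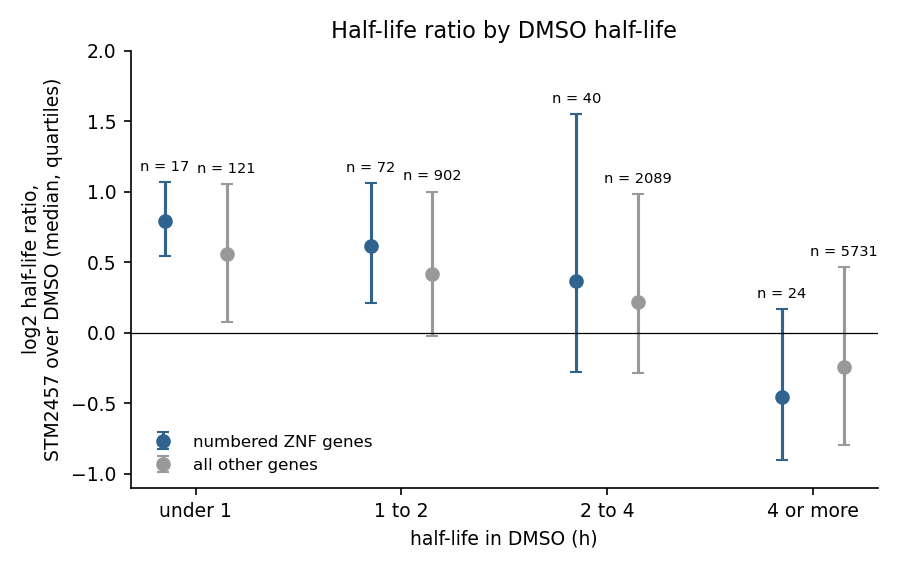
Median log2 ratio of half-life in STM2457 over DMSO, with quartiles as bars, by half-life in DMSO, for numbered ZNF genes (blue) and all other genes (grey). The ZNF medians run from 0.79 under 1 h to -0.46 at 4 h or more, in the same order as the medians of other genes; the ratio and the class share the DMSO value.

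The Length column of the table did not order the members' median ratios. Its median was 4457 in the family and 3775 in other genes, in a unit the file does not name. The 51 longest members had a median log2 ratio of 0.57, the middle 51 of 0.34 and the 51 shortest of 0.58, and the shorter-lived members among them numbered 3, 5 and 9. The Spearman correlation of Length with the ratio was -0.03 over 153 genes. The longest members were ZNF704 (14386), ZNF445 (18314) and ZNF431 (13894). ZNF431 had 1.44 h in STM2457 and 1.501 h in DMSO, so the 3 longest were a shorter-lived gene, a longer-lived gene and 1 within the rule. The shortest members were ZNF593 (698), ZNF428 (1162) and ZNF32 (1201), a shorter-lived gene between a pair of longer-lived ones.

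Synthesis leaned the other way. The synthesis value was lower in STM2457 in 117 of 153 members (76.5%), against 54.3% of other genes, with a median log2 ratio of -0.27, against -0.05 in other genes. Past 1.5-fold it was higher in 5 members (3.27%), where 12.6% of all genes were, and lower in 31 (20.3%), where 13.2% were. The highest synthesis ratios were those of ZNF503, a developmental corepressor related to ZNF703 (log2 0.79), ZNF512 (0.75) and ZNF749 (0.70). The lowest were those of ZNF641 (-1.56), ZNF672 (-1.56) and ZNF219 (-1.37), all 3 at the half-life ceiling. ZNF503 was also longer-lived, with 1.57 h in STM2457 and 0.880 h in DMSO, and ZNF749 was within 1.5-fold.

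Of the 71 longer-lived members 65 (91.5%) had a lower synthesis value in STM2457, against 70.7% of the other longer-lived genes, and of the 17 shorter-lived members 12 had a higher one. Half-life and synthesis ratios had a Spearman correlation of -0.64 over the 153 members and -0.35 over 8840 other genes. Both values come from the same fit to the same reads, so an error in one can be offset in the other, and its part in the correlation was not tested.

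The abundance implied by the fit, synthesis times half-life at steady state, therefore moved less than the half-life. Its median log2 ratio was 0.20 in the family and -0.06 in other genes. Past 1.5-fold, 41 members (26.8%) were higher, where 28.3% of all genes were, and 16 (10.5%) lower, where 24.7% were, so the higher share was near the background. Of the 71 longer-lived members 39 were also higher in implied abundance. ZNF292, longer-lived by 3.01-fold, had a 2.22-fold implied abundance, ZNF12 with 2.04-fold had 1.05-fold, and ZNF445 with 1.77-fold had 0.770-fold.

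If STM2457 stayed on through labelling, cells had met it for at most 6 h when RNA was taken, and in that time abundance could grow by no more than 6 h of synthesis without decay. The implied abundance was above that limit in 20 members (13.1%), against 23.6% of other genes. All 20 were longer-lived, but their other values already required this, so it is no separate finding. Each had a lower synthesis value in STM2457 and at most 5.82 h in DMSO, so only a longer-lived gene could pass the limit. The 20 included the 5 members at the ceiling and 9 of the 10 largest ratios within 24 h, all but ZNF146. ZNF628 had an implied 4.38-fold, against a limit of 2.30-fold, and ZNF318 an implied 17.8-fold, against 2.07-fold. Without the 20, 38.3% of 133 members were longer-lived, 12.8% were shorter-lived and the median log2 ratio was 0.30. This cut depends on the half-life ratio itself, and the shares of other genes after the same cut were not computed. Among longer-lived genes 28.2% of members were above the limit, against 65.3% of other genes.

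**Figure D5:**
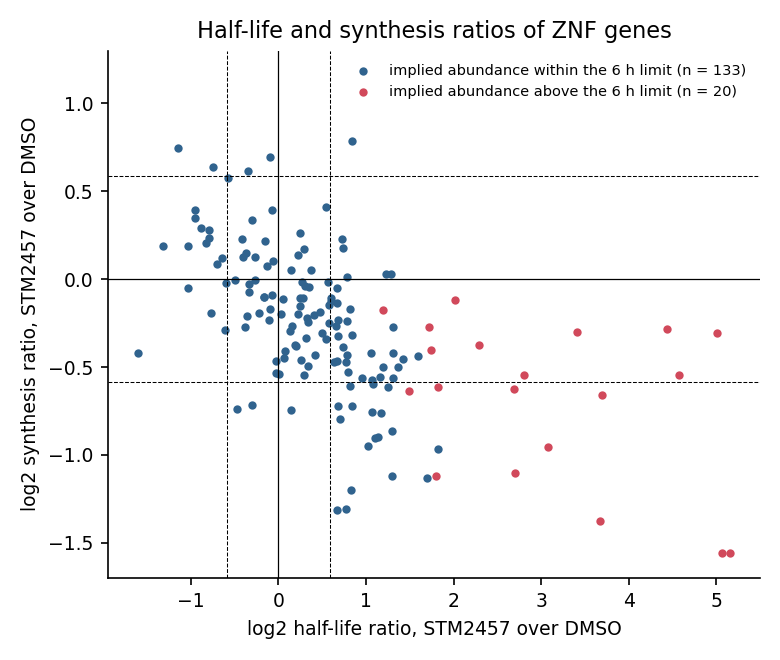
Log2 synthesis ratio against log2 half-life ratio, both STM2457 over DMSO, for 153 numbered ZNF genes; dashed lines mark 1.5-fold. Of the 71 longer-lived members 65 have lower synthesis values. The 20 members whose implied abundance exceeds what 6 h of synthesis could add (red) lie at the right.

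The zinc-finger genes with other numbered names had, pooled, medians near those of the family. Of 35 ZBTB, ZSCAN, ZKSCAN and ZFP genes, 15 were longer-lived (42.9%) and 3 shorter-lived (8.57%), where 28.5% and 24.9% of all genes were. The median of their log2 ratios was 0.45. Their half-lives had medians of 2.05 h in STM2457 and 1.48 h in DMSO. The 17 ZBTB genes among them, whose proteins add a BTB dimerisation domain, had 9 longer-lived (52.9%) and 1 shorter-lived (5.88%), with a median of 0.61. The 7 ZSCAN genes had 1 of each (14.3%), with a median of -0.01. The 6 ZKSCAN genes had 2 longer-lived (33.3%) and 1 shorter-lived (16.7%), with a median of -0.25. The 5 ZFP genes had 3 longer-lived (60%) and none shorter-lived, with a median of 0.65. The medians of these small name groups thus differed in sign, and whether their shares differ from all genes was not tested. None of the 35 had a longest coding exon under 400 nt. Among the genes closest to the family's medians in log2 DMSO half-life and log2 ratio, a likeness over 2 treatments, were TRIM24 and MEX3A. TRIM24 had 2.54 h in STM2457 and 1.76 h in DMSO, and MEX3A had 2.44 h in STM2457 and 1.74 h in DMSO.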

How the data were processed

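Total RNA of 18 HEK293T samples (6 groups of 3) was alkylated and made into 3′ end libraries, per the labels' protocols; 1 library had a lower input, and the labels do not tie it to a sample. FastQC 0.11.9, STAR 2.7.8a and GRCh38.p12 are named, per the submitters' processing notes; the sources used here name neither the tool behind the kinetic fit nor its strand setting and filters. The deposited half-lives and synthesis values are fitted scores of the authors, 1 per gene and treatment, and the log2 columns of STM2457 over DMSO are the authors' own, which recomputed values matched to within 1.27e-14. The table lists no counts, so the depth per sample and its precision are unknown.

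Ratios, calls past 1.5-fold, medians and quartiles were computed over the members, the other genes and the whole table; 3 genes had no synthesis ratio. Implied abundance was synthesis times half-life over ln 2. Exons, coding sequences and coordinates came from GENCODE 29 (GRCh38), not the release the authors used; with versions removed, 8982 of 8996 identifiers were found, and all 153 members matched with equal symbols. Each gene was represented by its transcript of longest coding sequence. Fingers (C, 2 to 4 residues, C, 12 residues, H, 3 to 5 residues, H) were counted in translations of these sequences, in place of a protein table. KRAB and SCAN patterns were sought in translations of every annotated coding transcript of the gene. DRACH motifs were counted on the coding strand by the position of A. The counting was checked on simulated data. Tables were computed with pandas 2.3.3, NumPy 2.4.6 and SciPy 1.17.1 under Python 3.11.15, and drawn with Matplotlib 3.10.9.

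Named genes were the 10 largest and 10 smallest ratios with both half-lives between 0.5 and 24 h, members at the ceiling, the 3 extremes of DMSO half-life, Length, synthesis ratio, finger number and far motifs, the 3 genes nearest the family's medians, and members of the role and corepressor lists; a few of these are not reported here. The members and lists were chosen with earlier results of these data known. Alternatives changed the fold, the range of half-lives, the set of members, the summary and the classes.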

Additional observations from a re-analysis of the deposited data

How the results depend on the processing

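No paired analysis was possible because the table gives 1 fitted value per gene and treatment, and for the same reason no sample could be left out. With a 2-fold rule 28.1% of members were longer-lived and 3.27% shorter-lived, and with a looser rule below 1.5-fold 55.6% and 18.3%. Synthesis was higher in 0% and lower in 6.54% past 2-fold, and lower in 43.1% past the looser rule. Implied abundance was higher in 15% and lower in 3.27% past 2-fold. Past the looser rule it was higher in 41.2% and lower in 22.2%. The shares of all genes at these folds were not computed. Whether the family differs from all genes at them is therefore not shown. The median log2 half-life ratio was 0.38 with both half-lives at 0.5 to 24 h, 0.38 with lettered ZNF genes added, 0.67 without same-strand overlaps, 0.30 without members above the limit of 6 h of synthesis and 0.64 as a mean. Without those above the limit, implied abundance was higher in 15.8% with a median of 0.10. The difference between the shortest and longest DMSO classes was 0.92 between the extremes of 4 equal classes and -0.76 with classes by a member's log2 half-life averaged over STM2457 and DMSO, which no longer take the DMSO value alone. The difference by Length was -0.16 between 2 equal classes and -0.12 at 0.5 to 24 h, against 0.00. The difference by far motifs was 0.07 at 50 nt from a junction and 0.44 with GGAC, by fingers 0.07 between the upper and lower members by count and 0.40 at 0.5 to 24 h, on chromosome 19 minus elsewhere -0.11 at 0.5 to 24 h, and by longest coding exon 0.58 at 2 to 8 h in DMSO. The corepressor list had 3 longer-lived and 0 shorter-lived genes past 2-fold. The cause of these shifts was not tested. Of the other 49 recomputed values, some moved within the margins set for them: synthesis was higher in 7.19% past the looser rule, implied abundance was lower in 6.54% of members after centring on all genes, and the difference from ZBTB, ZSCAN, ZKSCAN and ZFP genes, 0.05 as reported, was -0.05 at 0.5 to 24 h. Without counts, depth sets no stated limit on any single half-life.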

Other observations

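ZNF genes whose symbol ends in a letter had a median ratio of the other sign than the numbered ones. Of 12 such genes, 2 were longer-lived (16.7%) and 5 shorter-lived (41.7%) in STM2457, where 28.5% and 24.9% of all genes were, and the median of their log2 ratios was -0.53. Their half-lives had medians of 2.19 h in STM2457 and 2.71 h in DMSO. Their longest coding exon had a median of 1787 nt, above that of the numbered genes. That median covers only the genes with a coding sequence, while the median ratio includes the pseudogenes named below. By these medians the group did not follow the pattern by exon length. With 12 genes and no replicate values the difference was not tested. ZNF33A had 2.10 h in STM2457 and 3.09 h in DMSO, and its close copy ZNF33B had 0.864 h in STM2457 and 1.56 h in DMSO. ZNF280C had 0.784 h in STM2457 and 1.252 h in DMSO, ZNF75D had 3.33 h in STM2457 and 5.16 h in DMSO, and ZNF512B had 4.12 h in STM2457 and 6.87 h in DMSO. Its relative ZNF512 was also shorter-lived. The exceptions were the related genes ZNF518A, with 2.28 h in STM2457 and 1.22 h in DMSO, and ZNF518B, with 10.2 h in STM2457 and 1.86 h in DMSO. Of the 12, ZNF252P and ZNF271P are annotated as pseudogenes, and ZNF252P, 1 of the 5 shorter-lived, had the lowest log2 ratio (-1.28). Reads of such near copies can be split by the authors' counting, and its part was not tested. These genes are named as the whole list of lettered symbols or as examples chosen after their values were seen.

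Related members did not always move together. ZNF76 was shorter-lived and its relative ZNF143 within 1.5-fold; ZNF281 and ZNF148, and ZNF703 and ZNF503, were both longer-lived. ZNF687 and ZNF592, partners in 1 chromatin complex, were both within 1.5-fold, with 2.45 and 2.02 h in STM2457, against 1.83 and 2.68 h in DMSO. The pairs were chosen after their values were seen.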
